A study of Mus musculus with 8 samples.

Results

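The MHC class II genes described here are *H2-Aa*, *H2-Ab1*, *H2-Eb1*, *Cd74*, *H2-DMa*, *H2-DMb1* and *Ciita*, 7 of the 45583 gene symbols in the read count table of a study of whole mouse ovaries. They were found in the table by symbol, and all 7 had enough reads to be tested. Ovaries of 3-week-old C57/Bl6 females were sequenced, 1 library per mouse, from 4 wild-type mice (WT, animals 1118, 1119, 1120 and 1121) and 4 mice with a whole-body deletion of ghrelin-O-acyltransferase (GOAT KO, animals 1139, 1140, 1141 and 1146). GOAT, encoded by *Mboat4*, is the enzyme that acylates the hormone ghrelin. The WT and GOAT KO mice were littermates from heterozygous parents, and 1 whole ovary of each was frozen without sorting of cells. Only reads from the whole organ were measured, so fewer antigen-presenting cells and less class II RNA per cell cannot be told apart in any value below.

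MHC class II molecules carry peptides from proteins taken up by the cell to its surface, where CD4+ T cells read them. Each molecule pairs an alpha and a beta chain. The pair is held by the invariant chain (*Cd74*) until it reaches the endosome, where the DM heterodimer helps to exchange the last piece of invariant chain for a peptide. Transcription of the chain and DM genes, and in part that of *Cd74*, depends on the coactivator CIITA, the product of *Ciita*. CIITA docks on factors bound to the X box and Y box of class II promoters. Dendritic cells, B cells and many macrophages make class II constantly, and most other cells do so only after interferon gamma. In the ovary, macrophages are a main leukocyte population.

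Counts of *Mboat4* were examined first, and they went against the labels. The libraries labelled WT held 1, 1, 1 and 3 reads on *Mboat4*, and the libraries labelled GOAT KO held 5, 7, 7 and 8. The gene did not pass the filter on low counts, and an exact permutation test of its normalised counts gave p = 0.0286 (two-sided), the smallest that 4 against 4 libraries can give. Whether the deleted part of the gene can still be read was not tested. All directions below therefore rest on the labels, and "GOAT KO" and "WT" mean the libraries labelled so.

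Library sizes were alike, with 16147216 to 19481798 counts on genes, and normalised read counts are given as CPM (counts scaled to a common library size), in which 1 read was worth 0.0512 to 0.0619. Ovarian genes were high in every library. The 6 granulosa cell genes summed to 4079 to 5232 CPM with *Inha* (inhibin alpha) the highest, the 7 oocyte genes to 950.6 to 1169 CPM with *Gdf9* (an oocyte growth factor) the highest, and the 5 theca and steroidogenic genes to 1966 to 3165 CPM with *Hsd3b1* (a steroid dehydrogenase) the highest. GOAT KO 1139 stood apart on the first axis of a multidimensional scaling plot, at 1.21 against -0.47 to 0.17 for the other 7 libraries. The same library held 365.4 CPM on 7 adipose tissue genes, against 9.04 to 23.7 CPM elsewhere. Of the steroidogenic genes, *Star* (cholesterol transport) was at 233.5 CPM there, against 8.14 to 31.9 CPM elsewhere. *Cyp17a1* (androgen synthesis) was at 600.8 CPM in GOAT KO 1139 and 355.0 CPM in WT 1120, against 42.4 to 137.7 CPM in the other 6, while *Hsd3b1* was highest in GOAT KO 1141. WT 1120 lay nearer to GOAT KO 1141 and 1146 than to the other WT libraries on the second axis, at -0.43 against -0.41 and -0.46, and WT 1118 lay the furthest out on that axis, at 0.76. The study set aside 1 library per group, which its text does not name, before it applied its criteria. Results are given here for all 8 libraries and for the 6 without WT 1120 and GOAT KO 1139, a pair that an earlier analysis of these data had picked.

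Of the 7 genes, 5 lie in the MHC on chromosome 17 (GRCm38, GENCODE positions). *H2-DMa* lies at chr17:34119541-34139101, *H2-DMb1* at chr17:34153072-34160230, *H2-Ab1* at chr17:34257689-34269419, *H2-Aa* on the minus strand at chr17:34282744-34287823 and *H2-Eb1* at chr17:34305867-34316674. *Ciita* lies at chr16:10480059-10528418. The promoter sequences below hold the letters of the X box and the Y box. Whether these letters bear on the levels of the genes in the libraries was not tested. The sequences come from RefSeq (GRCm38.p6), run 5′ to 3′ on the strand of the gene, and have the X box and then the Y box in capitals.
H2-Aa, chr17:34287857-34287914, minus strand: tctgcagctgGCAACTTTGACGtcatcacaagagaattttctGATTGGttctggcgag
H2-Eb1, chr17:34305766-34305822, plus strand: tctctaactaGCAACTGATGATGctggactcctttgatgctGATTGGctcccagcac
H2-Ob, chr17:34238808-34238862, plus strand: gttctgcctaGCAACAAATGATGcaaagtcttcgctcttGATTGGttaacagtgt
The X box began 81 bases before the start of *H2-Aa* and 91 bases before that of *H2-Eb1*, and the Y box followed after a gap of 20 and 18 bases. *H2-Ob*, a class II gene with 1 to 3 reads per library, held the same arrangement with a gap of 16 bases. The letters searched were GNAAC and TGANG with 2 or 3 bases between them for the X box and GATTGG for the Y box, on both strands, and were chosen after these sequences had been read. *H2-DMb1* also held the pair, at a place that overlaps an annotated exon, while both windows of *H2-DMa* and the windows of *H2-Oa* and *H2-DMb2* did not hold it. Of 32851 promoter windows of 300 bases, 1.81% held the X box letters, 16.1% the Y box letters and 0.0487% the X box followed by the Y box within 10 to 30 bases. Such a match describes letters and is not a measurement of binding. No window was used for *H2-Ab1*, *Ciita* and *Cd74*.

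The classical chains come first. *H2-Aa*, the alpha chain of the A molecule, had 15.9, 6.95, 8.89 and 12.3 CPM in WT 1118, 1119, 1120 and 1121 and 15.6, 8.92, 10.9 and 6.57 CPM in GOAT KO 1139, 1140, 1141 and 1146. The highest and the second highest library were of opposite genotype, and the lowest libraries, GOAT KO 1146 and WT 1119, were too. The group means were 11.0 ± 3.95 CPM in WT and 10.5 ± 3.82 in GOAT KO (SD, n = 4 each). The log2 fold change was -0.06 (SE 0.285, adjusted p = 0.990, edgeR quasi-likelihood test over all tested genes), less than the spread between libraries.

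*H2-Ab1* encodes the beta chain that pairs with the product of *H2-Aa*. It had 8.98, 4.56, 4.12 and 7.09 CPM in the WT libraries and 12.4, 4.71, 4.76 and 3.25 CPM in the GOAT KO libraries, in the same order of animals. GOAT KO 1139 was the highest of all 8 and the other GOAT KO libraries lay within or under the WT range, which gave the widest spread within a group, 3.82-fold between the highest and the lowest GOAT KO library. Means were 6.19 ± 2.28 CPM in WT and 6.29 ± 4.16 in GOAT KO (SD, n = 4 each). With all 8 libraries the log2 fold change was 0.02 (SE 0.392, adjusted p = 0.995, edgeR). Without WT 1120 and GOAT KO 1139 it was -0.69 (SE 0.245, unadjusted p = 0.0173, adjusted p = 0.452, edgeR), with means of 6.88 ± 2.22 CPM in WT and 4.24 ± 0.854 in GOAT KO (SD, n = 3 each). The sign of *H2-Ab1* thus depended on which libraries were used.

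*H2-Eb1* encodes the beta chain of the E molecule. It had 11.2, 4.17, 5.27 and 7.58 CPM in the WT libraries and 12.6, 4.83, 8.65 and 6.22 CPM in the GOAT KO libraries. It was the class II gene that lay furthest toward GOAT KO, at 7.04 ± 3.09 CPM in WT and 8.06 ± 3.39 in GOAT KO (SD, n = 4 each), and the groups overlapped over nearly the whole range. The log2 fold change was 0.20 (SE 0.333, adjusted p = 0.983, edgeR), and -0.20 (SE 0.311) in the 6 libraries. The E alpha gene, annotated as the pseudogene *H2-Ea-ps*, had 0 reads in every library, which allows up to 3 reads per library. Mice of the C57BL/6 background are known to lack a functional E alpha chain.

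*Cd74*, the invariant chain (chr18:60803848-60812652), had the most reads of the set, 2161 over the 8 libraries or 35.7% of the 6059 reads on the 7 genes. Its levels were 26.4, 9.50, 11.4 and 17.6 CPM in the WT libraries and 23.2, 11.9, 15 and 9.12 CPM in the GOAT KO libraries. They fell in the same order as those of *H2-Aa* in all 8 libraries. Means were 16.2 ± 7.63 CPM in WT and 14.8 ± 6.07 in GOAT KO (SD, n = 4 each), with a log2 fold change of -0.13 (SE 0.335, adjusted p = 0.986, edgeR). In the 6 libraries it was -0.56 (SE 0.302, unadjusted p = 0.0918, edgeR).

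*H2-DMa* and *H2-DMb1* encode the chains of DM, the peptide editor. *H2-DMa* had 2.11, 1.39, 1.04 and 1.64 CPM in the WT libraries and 1.80, 1.04, 1.54 and 0.930 CPM in the GOAT KO libraries, from 16 to 34 reads per library. *H2-DMb1* had 1.80, 1.22, 0.494 and 1.04 CPM in the WT libraries and 1.61, 0.733, 1.38 and 0.523 CPM in the GOAT KO libraries, from 9 to 29 reads. Both were high in WT 1118 and GOAT KO 1139 and low in WT 1120 and GOAT KO 1146. *H2-DMa* was at 1.54 ± 0.447 CPM in WT and 1.32 ± 0.410 in GOAT KO, with a log2 fold change of -0.21 (SE 0.278, adjusted p = 0.983, edgeR). *H2-DMb1* was at 1.14 ± 0.537 CPM in WT and 1.06 ± 0.519 in GOAT KO (SD, n = 4 each for both genes), with a log2 fold change of -0.07 (SE 0.414, adjusted p = 0.990, edgeR). Of the stretches of 50 bases, the read length, in the annotated transcripts of *H2-DMb1*, 22.7% also occur in its neighbour *H2-DMb2*, and 8.43% of those of *H2-DMa* also occur in transcripts of *Brd2*, an overlapping gene on the other strand. The counts of both DM genes are uncertain to that extent, and for *H2-DMa* the use of strand in counting was not stated. For *Ciita* the share was 1.46%, with *Dexi*.

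*Ciita*, the transactivator of the set, was the lowest of the 7. It had 1.18, 0.50, 0.604 and 1.42 CPM in the WT libraries and 1.20, 0.794, 0.768 and 0.407 CPM in the GOAT KO libraries, from 7 to 26 reads. WT 1121 was the highest and GOAT KO 1146 the lowest, with the other libraries of both groups mixed between them. Means were 0.925 ± 0.443 CPM in WT and 0.791 ± 0.323 in GOAT KO (SD, n = 4 each), and the log2 fold change was -0.22 (SE 0.394, adjusted p = 0.983, edgeR).

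**Figure D1:**
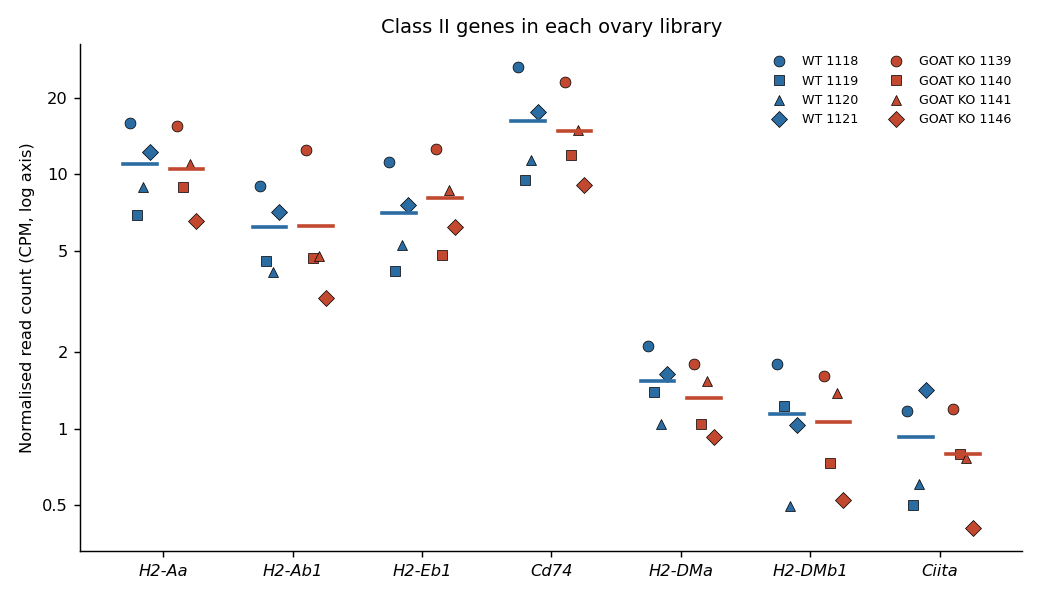
Normalised read counts (CPM, log axis) of the 7 class II genes, with 1 point per library, WT in blue and GOAT KO in red, a marker shape for each animal, and a bar at each group's mean of 4 libraries. WT 1118 and GOAT KO 1139 sit at or near the top of every gene, from 26.4 and 23.2 CPM for Cd74 down to 1.18 and 1.20 CPM for Ciita, and the groups overlap for all 7.

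With all 8 libraries, 0 of the 7 class II genes passed the study's criteria, an unadjusted p below 0.05 together with a log2 fold change past 0.5 in either direction, where 1.67% of the 16601 tested genes did. With a limit of 0.3 in place of 0.5 it was again 0, beside 2.85%, and at an adjusted p below 0.05 it was 0, beside 0.0241%. At an unadjusted p under 0.05 alone, 0 of the 7 passed in the edgeR test, beside 4.62% of all tested genes, and 0 passed the study's criteria in DESeq2 and in limma-voom. The values of the groups overlapped for all 7, and 2.92% of all tested genes had groups that did not overlap. Exact permutation tests of the mean CPM gave two-sided p values between 0.514 (*H2-DMa*) and 0.943 (*H2-Ab1*). The fold changes were below 0 for 5 genes and above 0 for 2, with a median of -0.07, beside a median of -0.0003 over all tested genes, of which 50.1% were below 0.

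Without WT 1120 and GOAT KO 1139, 1 of the 7 genes, *H2-Ab1*, passed the study's criteria, lower in GOAT KO, where 2.39% of 16641 tested genes passed in either direction and 1.08% in that direction. At an adjusted p below 0.05, 0 of the 7 passed, beside 0.12%. All 7 fold changes were then below 0, with a median of -0.56, beside a median of 0.001 over all tested genes, of which 49.7% were below 0. The values were -0.40 for *H2-Aa*, -0.52 for *H2-DMa*, -0.58 for *H2-DMb1* and -0.64 for *Ciita*, and their unadjusted p values, from 0.0870 to 0.167 in edgeR, did not pass. The members rise and fall together between libraries, so a common sign over 7 genes does not stand for 7 separate observations. The sign also depended on WT 1118. The median over the 7 genes was 0.20 without WT 1118 alone, -0.27 without WT 1120 alone and -0.38 without GOAT KO 1139 alone. Leaving out WT 1118 alone moved *Cd74* from -0.13 to 0.20, and leaving out GOAT KO 1139 alone moved it to -0.43 and *H2-Ab1* to -0.54.

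**Figure D2:**
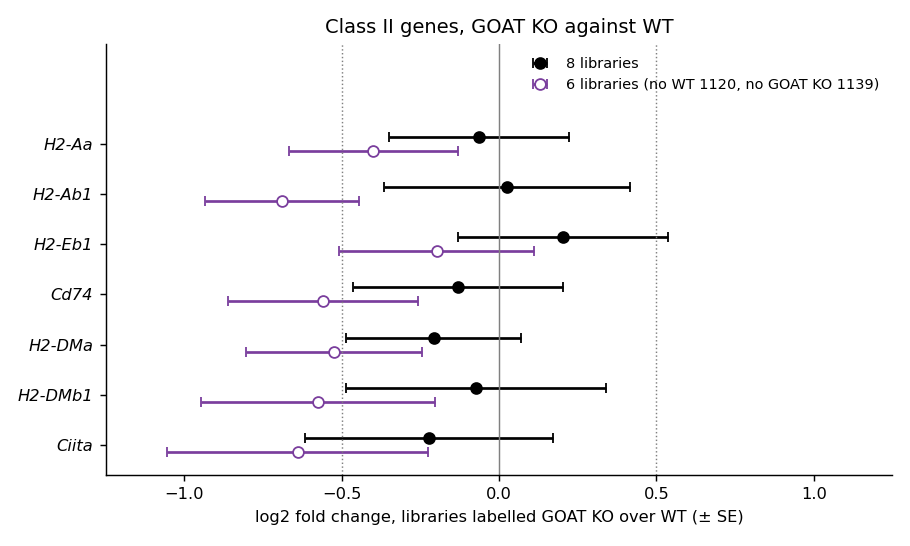
Log2 fold changes of GOAT KO over WT from edgeR for each class II gene, with bars of 1 SE, for all 8 libraries (filled) and for the 6 without WT 1120 and GOAT KO 1139 (open); dotted lines mark an absolute log2 fold change of 0.5. With 8 libraries the points lie between -0.22 and 0.20, and with 6 all lie below 0, down to -0.69 for H2-Ab1.

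Ovaries of the same genotype differed widely in class II. Within WT or within GOAT KO, the highest library exceeded the lowest by between 1.93-fold (*H2-DMa* in GOAT KO) and 3.82-fold (*H2-Ab1* in GOAT KO), and the mean of 4 GOAT KO over the mean of 4 WT libraries lay between 0.856 (*Ciita*) and 1.15 (*H2-Eb1*). Over the 8 libraries the summed level of the 7 genes was 67.6, 28.3, 31.8 and 48.6 CPM in the WT libraries and 68.3, 32.9, 43.0 and 27.0 CPM in the GOAT KO libraries. WT 1118 and GOAT KO 1139 were among the top 3 libraries for all 7 genes, and WT 1120 among the bottom 3 for all 7. GOAT KO 1146 was the lowest library for 5 of them. Each genotype thus held both high and low ovaries.

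The coefficient of variation over the 8 libraries (SD over mean) was 33.5% for *H2-Aa*, 49.8% for *H2-Ab1*, 40.4% for *H2-Eb1* and 41.4% for *Cd74*. Counting error at their mean counts gives 7.30%, 9.61%, 8.71% and 6.08%. Among tested genes within 1.5-fold of the same level, 97.5% to 99.0% varied less than these 4 genes. For the sparser genes counting error made up more of the spread, with 28.8% observed and 19.95% from counting for *H2-DMa*, 44.6% and 22.8% for *H2-DMb1*, and 42.7% and 25.8% for *Ciita*. Without GOAT KO 1139, the library rich in adipose genes, the variation of *Cd74* was 42.2% and that of *H2-Ab1* 37.0%.

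The genes varied together. The closest pair was *H2-Aa* and *Cd74*, with Pearson's r = 0.991 for log2 CPM over the 8 libraries (exact permutation p = 2.48e-05, adjusted over 21 pairs p = 0.000521) and Spearman's rho of 1.0 (exact permutation p = 4.96e-05, adjusted p = 0.00104). Without WT 1118 and GOAT KO 1139, the libraries farthest from the median of *H2-Aa*, r was 0.990. *H2-DMa* and *H2-DMb1* gave r = 0.936 (exact permutation p = 0.00134, adjusted p = 0.00703) and rho = 0.857 (exact permutation p = 0.0107, adjusted p = 0.0225), and r = 0.889 without the farthest 2 libraries. *H2-Aa* and *Ciita* gave r = 0.915 (exact permutation p = 0.00290, adjusted p = 0.0122) and rho = 0.881 (exact permutation p = 0.00724, adjusted p = 0.0169), with 0.926 without the farthest 2. Over all 21 pairs r ranged from 0.624 (*H2-DMb1* and *Ciita*) to 0.991, with 17 pairs under an adjusted p of 0.05 for r and 16 for rho. Some pairs rested on the extreme libraries, since r of *H2-Ab1* and *H2-Eb1* went from 0.796 to 0.325 without WT 1118 and GOAT KO 1139, and that of *H2-DMb1* and *Ciita* to 0.239 without WT 1120 and GOAT KO 1146. Over the 6 libraries without WT 1120 and GOAT KO 1139, r ranged from 0.534 to 0.991 and 3 of 21 pairs passed. Groups of 4 are too small for a correlation within a genotype.

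**Figure D3:**
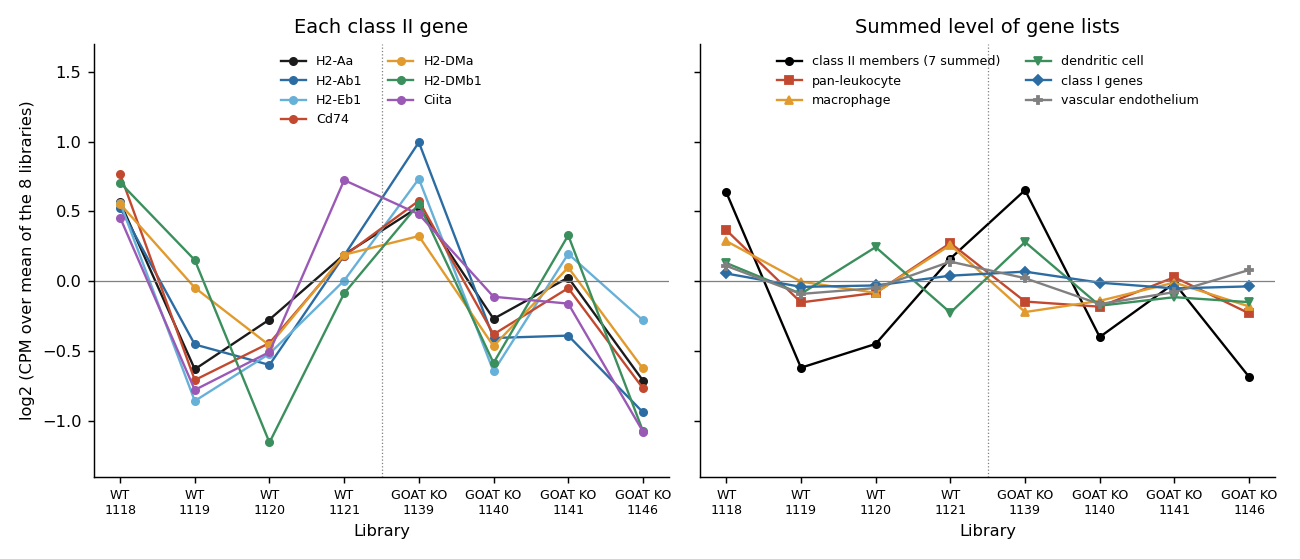
Log2 of the CPM in each library over the mean of all 8, for each class II gene (left) and for the summed CPM of the 7 genes and of 5 other gene lists (right), WT left and GOAT KO right of the dotted line. Most of the 7 genes follow the same zigzag with peaks at WT 1118 and GOAT KO 1139, where the set sums to 67.6 and 68.3 CPM, while the macrophage list is at 256.1 CPM in the first and 180.0 CPM in the second.

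Ratios between the chains were steadier than the levels. *Cd74* per *H2-Aa*, per exon length, lay between 2.90 and 3.76 in all 8 libraries, at 3.25 ± 0.366 in WT and 3.16 ± 0.149 in GOAT KO (SD, n = 4 each, two-sided exact permutation p = 0.771). *H2-Aa* per *H2-Ab1* lay between 0.845 (GOAT KO 1139) and 1.56 (GOAT KO 1141), at 1.21 ± 0.179 in WT and 1.26 ± 0.301 in GOAT KO (SD, n = 4 each, exact permutation p = 0.80). *H2-Eb1* per *H2-Ab1* was at 1.49 ± 0.222 in WT and 1.90 ± 0.647 in GOAT KO (SD, n = 4 each, exact permutation p = 0.343), with 2.40 and 2.52 in GOAT KO 1141 and 1146 above every other library. None of these ratios differed between the genotypes beyond the spread of the libraries.

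Levels of different genes are compared as CPM per kilobase of exon. *Cd74* was the highest at 9.24 ± 3.83, followed by *H2-Eb1* at 3.89 ± 1.57, *H2-Aa* at 2.83 ± 0.949, *H2-Ab1* at 2.43 ± 1.21, *H2-DMb1* at 0.655 ± 0.292, *H2-DMa* at 0.416 ± 0.120 and *Ciita* at 0.0900 ± 0.0384 (SD, n = 8). All neighbours in this order differed by exact sign-flip tests within libraries, with adjusted p = 0.0312 for *H2-Aa* over *H2-Ab1*, 0.0187 for *H2-DMb1* over *H2-DMa* and 0.0117 for the other 4 pairs (n = 8). Of the 6 pairs, 5 passed without any 1 of WT 1118, WT 1120, GOAT KO 1140, GOAT KO 1141 and GOAT KO 1146, and 4 passed with the longest transcript as length. The order of the classical chains depended on the length used. With the longest transcript in place of all annotated exons, *H2-Ab1* came before *H2-Eb1* and *H2-Aa*, and the other positions were as before. Among 15820 tested genes with a length, *Cd74* ranked 6533 and *Ciita* 15751, so the set was of middle to very low abundance in the whole ovary.

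**Figure D4:**
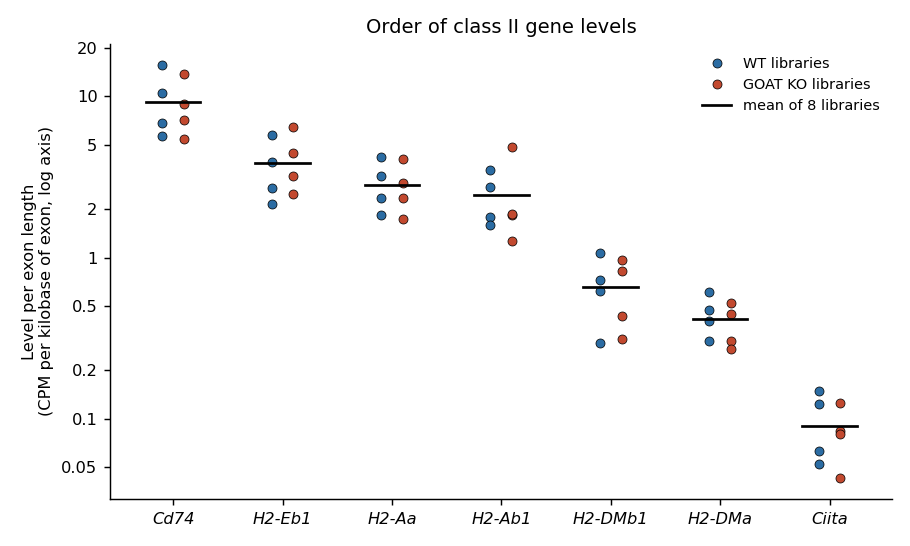
Level of each class II gene as CPM per kilobase of exon (log axis), in descending order of the mean of 8 libraries (black bar), with 1 point per library, WT in blue and GOAT KO in red. The means run from 9.24 for Cd74 to 0.0900 for Ciita, and for each gene the points of both groups overlap, with GOAT KO 1139 the highest point of H2-Ab1.

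Reads across splice junctions give another view of the same transcripts. *Cd74* had 676 junction reads on 9 of its 10 annotated introns, *H2-Ab1* 157, *H2-Aa* 125, *H2-Eb1* 120, *H2-DMb1* 44, *H2-DMa* 11 and *Ciita* 7. *H2-Ab1* had 43 junction reads in GOAT KO 1139 and 25 in WT 1118, the highest of the 8 libraries, and 8 in WT 1119, the lowest. GOAT KO 1146, the lowest library of *H2-Ab1* by gene counts, had 15 junction reads of this gene, more than WT 1119 and WT 1120 (13). The junction reads of *Cd74*, *H2-Aa* and *H2-Eb1* also did not rank the libraries as the gene counts did. *Cd74* had 134 in GOAT KO 1139 and 109 in WT 1121, but 72 in WT 1118, beside 71 in WT 1120 and 69 in GOAT KO 1146. *H2-Aa* had 30 in GOAT KO 1139 and 27 in WT 1121 against 15 in WT 1118, and *H2-Eb1* had 35 in GOAT KO 1141, its highest, 27 in WT 1118 and 18 in GOAT KO 1139. The high level of WT 1118 in gene counts was thus not seen in the junction reads of *Cd74* and *H2-Aa*. *H2-Ea-ps* had none.

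*Cd74* is spliced to a short and a long form, and the long form holds an extra exon of 192 bases (chr18:60811294-60811485). The junction that skips this exon had 16, 16, 9 and 12 reads in the WT libraries and 0, 12, 0 and 11 in the GOAT KO libraries. The junction that enters it had 0, 0, 0 and 5 reads in WT and 0, 1, 3 and 5 in GOAT KO. The long form made up 14 of 90 reads in all, 15.6% (95% exact binomial interval 8.77% to 24.7%, counting error only). Per library it was 0% in WT 1118 (interval 0% to 20.6%), 29.4% in WT 1121 (10.3% to 56.0%), 31.2% in GOAT KO 1146 (11.0% to 58.7%) and 100% of 3 reads in GOAT KO 1141 (29.2% to 100%), so the intervals of single libraries were wide. The means were 7.35% ± 14.7 in 4 WT and 46.3% ± 48.0 in 3 GOAT KO libraries (SD, two-sided exact permutation p = 0.0857). Without GOAT KO 1141, with its 3 reads, the difference of 39.0 percentage points fell to 12.1 (exact permutation p = 0.333). GOAT KO 1139 had no read at either junction although it had 134 *Cd74* junction reads in all, the most of any library, and WT 1120 had 3 reads that leave the exon and none that enter it. The files list only junctions that the aligner found, and a difference in form between genotypes was not detected.

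*Ciita* is read from several promoters with their own first exons, used by different cell types. Of its 7 junction reads, 0 joined any annotated first exon to the rest, which allows up to 3 reads, so the promoter in use could not be read from these data.

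The other class II genes had hardly any reads, and 0 of 5 passed the filter on low counts. *H2-Oa* and *H2-Ob*, the chains of DO, an inhibitor of DM, had 4 to 11 and 1 to 3 reads per library. *H2-DMb2*, the second DM beta gene, had 0 to 5, and *H2-Eb2* had 0 to 2.

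The factors that read class II promoters were measured in every library at far steadier levels. Of 11 genes of class II transcription, 11 were tested and 0 passed the study's criteria. The highest library exceeded the lowest by 1.12- to 1.33-fold per gene, beside 2.27- to 3.82-fold for the 7 class II genes, *Ciita* among them. The class II genes had fewer reads than most of the 11 factors, so these ranges were not matched for level or counting error. The fold changes of the 11 had a median of -0.01. *Ep300*, a histone acetyltransferase and the highest of the 11, was at 184.8 ± 22.4 CPM in WT and 178.6 ± 5.72 in GOAT KO (SD, n = 4 each). *Rfx5*, a subunit of the X box factor, was at 45.6 ± 4.56 and 45.7 ± 5.26 CPM. *Creb1*, a factor that binds class II promoters, was lower in every GOAT KO than in every WT library, at 118.8 ± 3.78 CPM against 130.6 ± 3.57 (SD, n = 4 each), a log2 fold change of -0.14 (SE 0.0501, unadjusted p = 0.020, adjusted p = 0.983, edgeR) that was too small for the criteria. It was the 1 gene of the 11 under an unadjusted p of 0.05, beside 4.62% of all tested genes, and 2.92% of all tested genes had groups that did not overlap. Of the interferon gamma route, 9 of 10 genes were tested, 0 passed, and the highest, *Jak1* (a receptor-bound kinase), was at 1033 ± 86.2 CPM in WT and 1116 ± 40.8 in GOAT KO (SD, n = 4 each). *Irf1*, a transcription factor induced by interferon gamma, was also lower in every GOAT KO than in every WT library, at 51.9 ± 1.39 CPM against 58.3 ± 3.23 (SD, n = 4 each), a log2 fold change of -0.17 (SE 0.0608, unadjusted p = 0.0187, adjusted p = 0.983, edgeR). It was the 1 gene of the 9 under an unadjusted p of 0.05, the same shares of all genes apply, and the 9 fold changes had a median of -0.04, with 6 below and 3 above 0. *Ifng*, the gene of interferon gamma itself, had 1 and 2 reads in WT 1118 and WT 1121 and 0 in the other 6 libraries, which allows up to 3 reads in each.

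The proteases and endosomal proteins that prepare invariant chain and peptides were mostly steady. Of 14 genes, 12 were tested, and 0 passed the criteria with 8 libraries. *Ctss*, cathepsin S, the protease that trims the invariant chain in antigen-presenting cells, had 10.9, 9.28, 9.44 and 12.9 CPM in the WT libraries and 7.72, 6.90, 9.06 and 6.57 CPM in the GOAT KO libraries. Every GOAT KO library lay under every WT library, where 2.92% of all tested genes did not overlap. The log2 fold change of *Ctss* was -0.49 (SE 0.144, unadjusted p = 0.00606, adjusted p = 0.983, edgeR), just short of the size asked for, and in the 6 libraries it was -0.55 and passed, where 1.08% of all tested genes were called lower. GOAT KO 1139 therefore was high for class II genes and not for *Ctss*, and *H2-Aa* per *Ctss* was 2.02 there, against 0.749 to 1.46 in the other 7 libraries. Of the genes of costimulation, 5 of 7 were tested and 0 passed, and the highest was *Icosl* (a ligand of a T cell costimulator) at 69.5 ± 8.74 CPM in WT and 66.8 ± 7.64 in GOAT KO (SD, n = 4 each).

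Class I genes, which present peptides from inside the cell, varied over a narrower range. Of 14, 14 were tested and 0 passed. The highest library exceeded the lowest by 1.07-fold (*Tapbp*, which helps to load peptides) to 1.71-fold (*B2m*, the light chain), and *Pdia3*, a chaperone of class I loading and the highest of them, was at 1228 ± 28.9 CPM in WT and 1215 ± 50.0 in GOAT KO (SD, n = 4 each). *H2-K1*, a classical class I heavy chain, had 156.7, 135.7, 124.8 and 151.0 CPM in the WT libraries and 147.6, 133.7, 138.5 and 121.2 CPM in the GOAT KO libraries, high and low in nearly the same ovaries as class II over a smaller range.

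Markers of the cells that could carry class II are given next by counts and summed levels. The 9 pan-leukocyte genes were all tested and all had fold changes below 0, and 1 passed, lower in GOAT KO, where 0.717% of all tested genes were called lower. They summed to 47.1 to 67.4 CPM in WT and 44.6 to 53.3 in GOAT KO. That gene, *Tyrobp*, a signalling adaptor of myeloid cells, was at 7.58 ± 0.790 CPM in WT and 5.29 ± 1.18 in GOAT KO, a log2 fold change of -0.51 (SE 0.163, unadjusted p = 0.00929, adjusted p = 0.983, edgeR). In the 6 libraries it was -0.36 (unadjusted p = 0.0558, edgeR) and did not pass. Of 14 macrophage genes, 14 were tested, 12 had fold changes below 0 and 2 passed, both lower in GOAT KO. *Lyz2*, lysozyme, had 63.9, 52.3, 55.3 and 64.5 CPM in the WT libraries and 41.3, 41.3, 50.3 and 31.4 CPM in the GOAT KO libraries, a log2 fold change of -0.52 (SE 0.128, unadjusted p = 0.00188, adjusted p = 0.983, edgeR). *Fcgr1*, the high-affinity IgG receptor, was at 1.24 ± 0.193 CPM in WT and 0.860 ± 0.0722 in GOAT KO, a log2 fold change of -0.53 (SE 0.204, unadjusted p = 0.0256, adjusted p = 0.983, edgeR). The macrophage list summed to 198.0 to 256.1 CPM in WT and 180.0 to 208.4 in GOAT KO, and GOAT KO 1139, with the highest class II sum, had the lowest macrophage sum. Their part in the class II values was not tested.

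Of 10 dendritic cell genes 4 were tested and 0 passed, and the list summed to 78.9 to 109.3 CPM in WT and 81.7 to 112.1 in GOAT KO, mostly from *Zbtb46* at 67.3 ± 7.89 and 66.0 ± 4.27 CPM (SD, n = 4 each). *Zbtb46* is also made by endothelial cells. The highest sums of the list, in GOAT KO 1139 and WT 1120, went with *Cbfa2t3*. This gene was at 37.4 and 43.6 CPM there, against 11.2 to 19.3 CPM elsewhere. Of 8 B cell genes 3 were tested and 0 passed, with sums of 5.18 to 7.31 CPM in WT and 5.46 to 6.76 in GOAT KO, mostly from *Ms4a1* at 3.83 ± 0.599 and 3.72 ± 0.563 CPM. The B cell genes *Cd79a* and *Cd79b* had only 1 to 9 and 2 to 9 reads per library. Of 8 T cell genes 3 were tested and 0 passed, with sums of 22.1 to 28.2 CPM and 21.9 to 25.1 CPM, mostly from *Thy1* at 18.5 ± 2.86 and 17.3 ± 1.15 CPM, a gene of other cell types too. The defining T cell gene *Cd3e* had 0 to 3 reads per library. Of 6 genes of lymph node stroma and vessels 0 were tested, *Ccl19* and *Glycam1* were at 0 reads in all libraries, the sums were 0.384 to 0.558 CPM in WT and 0.291 to 0.897 in GOAT KO, and the highest was *Cxcl13* at 0.214 ± 0.0736 and 0.329 ± 0.159 CPM.

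Relative to leukocyte genes, class II also differed between ovaries. *H2-Aa* per *Ptprc*, the pan-leukocyte antigen CD45, lay between 1.89 (WT 1119) and 4.64 (GOAT KO 1139), at 2.66 ± 0.748 in WT and 2.97 ± 1.19 in GOAT KO (SD, n = 4 each, two-sided exact permutation p = 0.714). *H2-Aa* per *Lyz2* lay between 0.133 (WT 1119) and 0.377 (GOAT KO 1139), at 0.183 ± 0.0499 in WT and 0.255 ± 0.0814 in GOAT KO (SD, n = 4 each, exact permutation p = 0.20). The adipose genes *Adipoq* (adiponectin), *Cfd* (adipsin), *Cidec*, *Plin1* (lipid droplet proteins) and *Retn* (resistin), 5 of the 5 tested, passed with 8 libraries, higher in GOAT KO, where 1.67% of all tested genes were called in either direction, and *Adipoq* had 96.7 CPM in GOAT KO 1139 against 0.291 to 2.99 CPM elsewhere. WT 1118, with the lowest adipose sum of 9.04 CPM, had a class II sum of 67.6 CPM, close to the 68.3 CPM of GOAT KO 1139. Only *Plin1* of the adipose genes also passed in the 6 libraries. The part of adipose and steroidogenic tissue in the class II values of GOAT KO 1139 was not tested. No gene of the lists of oviduct (5 tested, highest *Tppp3*, 8.49 to 20.2 CPM), ovarian surface epithelium (6 tested, highest *Upk3b*, 44.4 to 63.9 CPM), vascular endothelium (6 tested, highest *Cdh5*, 72.9 to 100.5 CPM), oocytes (7 tested), theca cells (5 tested) and blood (3 tested, highest *Hbb-bs*, 85.8 to 335.3 CPM) passed. Of the granulosa list, *Fshr*, the receptor of follicle-stimulating hormone, passed in the 6 libraries, with a log2 fold change of 0.68 (SE 0.128, unadjusted p = 0.000260, adjusted p = 0.144, edgeR), beside 2.39% of all tested genes called there, and 0 of 6 passed with 8.

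The genes outside the set whose log2 CPM followed the mean of the 7 standardised class II levels most closely over the 8 libraries were *Casp1* (r = 0.959), *Fbxo40* (0.957), *Dhx38* (0.954), *Ebf1* (0.946), *Arid5a* (0.942), *Bmp7* (0.932), *H2-K1* (0.929), *Chd1* (0.927), *Cdc34-ps* (0.926) and *Cd22* (0.923). Without GOAT KO 1139, r of these 10 lay between 0.898 (*Chd1*) and 0.957 (*Cdc34-ps*). The points share their libraries and depth, and the 10 were picked from all tested genes as the highest, so these values are a description. *Casp1* had 1.55, 0.667, 0.768 and 1.36 CPM in the WT libraries and 1.56, 0.856, 1.23 and 0.755 CPM in the GOAT KO libraries, a range of 2.33-fold. *Dhx38* had the same 4 highest libraries in the same order (GOAT KO 1139, WT 1118, WT 1121 and GOAT KO 1141) within a range of 1.12-fold.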

How the data were processed

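Ovary RNA of 8 mice was sequenced by the authors as single reads of 50 bases, which they aligned to mm10 (GRCm38) with TopHat 2.0.14 and counted per gene. The counting tool and its use of strand are not given in the sources used here. The gene counts and the splice junction counts were used as deposited. The deposited counts and percent of mapped reads (85.9 to 87.0%) served as a check, and StringTie 1.0.4 transcripts were not used. No 2 libraries of a group were alike within sampling noise (chi-square per gene 4.22 or more).

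Counts were tested with edgeR 4.0.16 in R 4.3.3 (TMM scaling, filterByExpr with 10 counts in a library of median size and 15 in all, quasi-likelihood test, Benjamini-Hochberg adjustment over all tested genes). Libraries of a group are separate animals. Exact permutation over libraries was used for single values (SciPy 1.17.1, 70 splits of 4 against 4, which cannot give a two-sided p below 0.0286). The test was tried on simulated counts first. Levels per length use all GENCODE exons. Alternatives were RLE factors, library totals, no filter, DESeq2 1.42.0, limma-voom (limma 3.58.1), 6 libraries, each library left out, and a log2 fold change of 0.3.

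Class II members, marker lists and the 6 libraries were chosen with earlier results of these data known. Genes named are the 7 members, the other class II genes, *Mboat4*, every gene of another list that passed in either set of libraries or else that list's highest gene, and the 10 genes most like the members. Outside this rule, *Inha* was named as the highest granulosa gene, and *Brd2* and *Dexi* for the sequence they share with members. *Star*, *Cyp17a1*, *Ucp1*, *B2m*, *Tapbp*, *Creb1*, *Irf1*, *Ptprc*, *Rfx5*, *Ifng*, *Cbfa2t3*, *Cd79a*, *Cd79b*, *Cd3e*, *Ccl19* and *Glycam1* were added after their values were seen.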

Additional observations from a re-analysis of the deposited data

Results flagged for a closer look

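*H2-Ab1* in GOAT KO 1139, at 12.4 CPM, lay apart from the other GOAT KO libraries (3.25, 4.71 and 4.76 CPM). Its gap to the nearest of them was 0.836 of the range of the group, over the 95% critical value of Dixon's test for 4 samples. It was the only such value among 14 groups tested (7 genes in 2 genotypes). Chance alone gives about 1 in every 20 groups, so 1 among 14 is not unusual. Of the 7 adipose genes 6, all but *Ucp1*, and *Star* (233.5 CPM) and *Cyp17a1* (600.8 CPM) were also highest in that library, and their part was not tested.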

How the results depend on the processing

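No paired analysis was possible because the WT and GOAT KO animals share no numbers. The count of the 7 class II genes called was 0 under every alternative run, except 1 (*H2-Ab1*) without WT 1120 and GOAT KO 1139. The number of all genes called was 278, and it moved to 473 at a log2 fold change over 0.3 and to 691 with no filter, and ranged from 231 to 437 with each library left out, highest without WT 1120. With 6 libraries, 3 pairs of class II genes passed in place of 17. No log2 fold change of a class II gene passed the test with all 8 libraries, and several changed sign. *H2-Ab1* went from 0.02 to -0.10 in limma-voom and to -0.69 in 6 libraries (-2.63 CPM as a difference of means), and *H2-Eb1* from 0.20 to -0.20 (-1.07 CPM). *H2-Eb1* was at -0.086 without GOAT KO 1139, and *Ciita* at 0.069 without WT 1121. With single libraries left out, the range was -0.43 to 0.20 for *Cd74*, -0.48 to 0.07 for *Ciita*, -0.31 to 0.16 for *H2-Aa*, -0.54 to 0.25 for *H2-Ab1*, -0.38 to -0.03 for *H2-DMa*, -0.33 to 0.22 for *H2-DMb1* and -0.09 to 0.51 for *H2-Eb1*. The median of the 7 ranged from -0.38 to 0.20, and was above 0 without WT 1118, GOAT KO 1140 or GOAT KO 1146. The sign of *H2-DMa* was negative in all alternatives run. The cause of these changes was not tested beyond the libraries removed. The difference in the long form of *Cd74* was 39.0 percentage points, and 12.1 to 58.3 with single libraries left out. Of 6 neighbours in the order of levels, 6 passed, 4 with the longest transcript and 5 to 6 with single libraries left out. Depth limits the DM genes and *Ciita*, with 7 to 34 reads per library.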
